A study of Mus musculus with 16 samples.

Results

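Chromatin accessibility at the promoters of 34 genes of glycolysis and the pentose phosphate pathway was examined in activated mouse B cells. In these cells 1 or both alleles of Smarca4, the gene that encodes the chromatin remodeling ATPase Brg1, were floxed for deletion by Cre. The genes were taken by symbol, with no filter on measured values, although earlier results of these data were known when they were chosen. They comprised 2 glucose transporters, 9 genes of the steps from glucose to triose phosphates and 7 of the steps from triose phosphates to pyruvate. The others were 4 of lactate formation and export, 5 regulators and 7 of the pentose phosphate pathway. All 34 were found in the GENCODE annotation of GRCm38 among 21938 protein-coding genes. A peak of an ATAC-seq list was assigned to a gene when it overlapped a window that begins 1000 bp before and ends 100 bp after any of its transcription start sites. Overlapping peaks of the lists were joined into 16512 regions, of which 10324 lay at a promoter of some gene and 32 at a promoter of 28 of the 34 genes.

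Glycolysis splits glucose into pyruvate and yields ATP, and the pentose phosphate pathway branches off after the hexokinase step to make NADPH and ribose phosphates. B cells that are driven to divide by lipopolysaccharide take up more glucose, and both routes then supply building blocks for nucleotides and lipids. Most of these genes have promoters that are rich in CpG and active in many tissues, and several are known targets of the hypoxia-inducible factor HIF-1, of Myc and of Sp1.

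ATAC-seq, in which the Tn5 transposase cuts accessible DNA, was analysed here in 8 libraries of mice with CD23-Cre, 4 for Brg1 fl/+ and 4 for Brg1 fl/fl. The study asked how loss of Brg1 alters accessible chromatin in activated B cells. The mice were C57BL/6 animals of 7 to 14 weeks. All carried CD23-Cre, which is active in mature B cells and targets 1 Smarca4 allele in Brg1 fl/+ cells and both in Brg1 fl/fl cells. The comparison holds no library of mice with 2 unfloxed alleles. The paper reports significantly less Brg1 protein in B cells of the Brg1 fl/fl mice, and the extent of deletion in these libraries was not examined here. Splenic B cells were enriched by magnetic depletion of CD43-positive cells and treated with LPS at 10 µg/mL and IL-4 at 20 ng/mL, and 50000 cells entered each library. The sample labels give 72 hours of treatment and the series text gives 96 hours. The number of mice behind the 4 libraries of a genotype is not given in the sources used here, so p-values rest only on the spread between these libraries. If libraries 1 and 2, or 3 and 4, of a genotype share a mouse, they are not independent, and values with those libraries joined are therefore given beside the tests.

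The lists hold the height of each peak as a fold relative to local background within its own library, and no read counts. The fold and the p-value of a peak together gave back the number of fragments at its summit. The median over promoter regions found in all 8 libraries was 79, 51, 24 and 36 fragments in Brg1 fl/+ libraries 1 to 4. In the Brg1 fl/fl libraries it was 48, 22, 43 and 43, so that Brg1 fl/+ library 1 was the deepest and Brg1 fl/fl library 2 the shallowest. Where a list lacks a peak, the promoter went undetected at the depth of that library, which does not show closed chromatin. Among B cell genes, the promoters of Pax5 and Ms4a1 had a peak in all 8 libraries, that of Ebf1 in 6, those of Cd79a and Blnk in 1 each, and those of Cd79b and Cd22 in none. None of 4 T cell, 4 myeloid, 2 NK cell and 3 erythroid marker genes had a promoter peak in any library. The Smarca4 promoter had a peak in all 8 libraries, with folds from 12.5 to 16.0, and a peak there does not show whether the floxed exons were deleted.

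The 32 regions at the glycolysis and pentose phosphate promoters lay close to start sites, which the promoter window used to choose them favours. Their median width was 659 bp, against 600 bp for all promoter regions. The summit lay a median of 38.5 bp from the nearest start site of the gene, and 31 of the 32 summits lay within 200 bp. Over all promoter regions the median distance to the nearest start site of any gene was 51 bp. The exception was a weak region 606 bp upstream of Pgd. In 4 genes, Hk2, Ldha, Pfkfb3 and Pgd, 2 separate regions were found. The region of Hk1 also held a start site of Hk1os, that of Pfkfb4 one of Gm38004 and that of G6pdx one of Ikbkg, and accessibility there cannot be assigned to 1 gene of the pair.

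**Figure D1:**
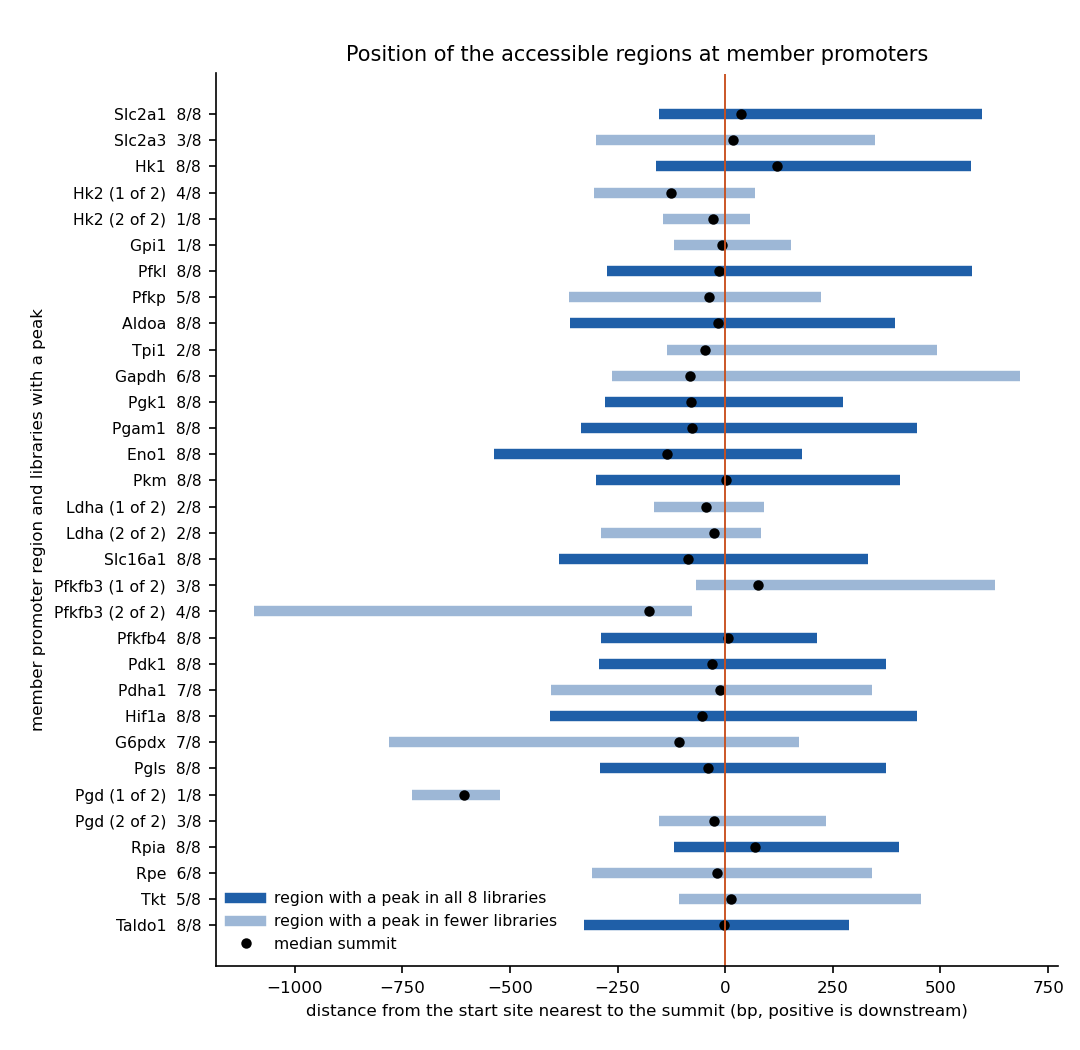
Position of the 32 regions relative to the start site nearest to the summit, in bp, with positive values downstream. Bars span the joined peaks, dots mark the median summit, dark bars are regions with a peak in all 8 libraries, and the number beside each name counts the libraries with a peak. All summits except that of the upstream Pgd region lie within 200 bp of a start site.

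Sequence around the summits was read from GRCm38 for 100 bp on either side and searched on both strands for 6 short motifs. GC content had a median of 68.4% at the glycolysis and pentose phosphate promoters and 66.7% over all promoter regions, and the ratio of observed to expected CpG was 0.806 and 0.864. The letters ACGTG, the core of the hypoxia response element that HIF-1 binds, occurred at 12 of the 32 regions (37.5%), against 20.6% of all promoter regions. These 12 regions belonged to Slc2a1, Hk1, Hk2, Gpi1, Gapdh, Pgk1, Pgam1, Ldha, Pfkfb3, Pdk1 and Hif1a, with both Ldha regions among them. The E-box, with the letters CACGTG that contain the hypoxia core, occurred at 1 region, of Ldha (3.12% against 8.70%). The GC box, with the letters GGGCGG that Sp1 family factors bind, was found at 24 of 32 regions (75.0% against 66.7%). The ETS core, with the letters CCGGAAG, was found only at Rpe (3.12% against 17.0%), the antioxidant response element, with the letters TGACNNNGC, at Hk1 and G6pdx (6.25% against 11.4%), and the E2F motif, written TTTGGCGC or TTTCGCGC, at none (0 against 1.25%). These matches are descriptions of the letters in these windows.

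The sequences below are shown for the promoter with the highest mean fold (Pfkfb4), for the one with the largest negative difference between genotypes (Aldoa) and for regions that the genotypes detected unequally (both Ldha regions, Pfkp and Gpi1). Bases of annotated exons are left out, the strand is that of the gene, and capitals mark matches to the 6 motifs. In the Ldha region at the upstream start sites, the capitals mark 3 GC boxes, 1 E-box and 3 occurrences of the hypoxia core, 2 of which lie in the E-box. The Pfkp sequence holds 4 GC boxes, those of Aldoa and Gpi1 hold 2 each, that of Pfkfb4 holds 1, and the stretch of the downstream Ldha region printed here holds none of the 6 motifs.
Pfkfb4, chr9:108991684-108991777, plus strand: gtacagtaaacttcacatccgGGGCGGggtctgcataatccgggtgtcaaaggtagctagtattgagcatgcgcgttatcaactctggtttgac
Aldoa, chr7:126799255-126799371, minus strand: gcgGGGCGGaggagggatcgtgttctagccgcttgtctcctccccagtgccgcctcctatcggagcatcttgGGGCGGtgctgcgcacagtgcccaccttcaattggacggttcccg
Ldha, upstream starts, chr7:46845694-46845838, plus strand: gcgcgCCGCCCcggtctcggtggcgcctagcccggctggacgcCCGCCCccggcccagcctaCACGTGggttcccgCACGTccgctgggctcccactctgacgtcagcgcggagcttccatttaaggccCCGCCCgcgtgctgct
Ldha, downstream starts, chr7:46846955-46847081, plus strand: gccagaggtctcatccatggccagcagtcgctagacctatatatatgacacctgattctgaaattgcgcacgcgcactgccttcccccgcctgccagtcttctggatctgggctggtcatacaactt
Pfkp, chr13:6648778-6648915, minus strand: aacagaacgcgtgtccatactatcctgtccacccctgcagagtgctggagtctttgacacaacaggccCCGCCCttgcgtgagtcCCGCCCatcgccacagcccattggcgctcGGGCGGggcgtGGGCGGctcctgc
Gpi1, chr7:34230337-34230397, minus strand: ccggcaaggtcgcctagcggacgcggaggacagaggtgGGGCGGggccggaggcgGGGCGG

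Of the 34 genes, 15 had a promoter peak in all 8 libraries, 13 in some and 6 in none. The share with a promoter peak in at least 1 library was 82.4%, against 47.8% of all protein-coding genes, and the share with one in all 8 was 44.1% against 22.2%. The 6 genes without a promoter peak were Hk3, Pfkm, Aldoc, Eno3, Ldhb and Slc16a3. Brg1 fl/+ libraries 1 to 4 detected 28, 27, 17 and 18 of the genes, and Brg1 fl/fl libraries 1 to 4 detected 22, 17, 22 and 24. The mean was 22.5 ± 5.80 genes (SD, n = 4) for Brg1 fl/+ and 21.2 ± 2.99 (SD, n = 4) for Brg1 fl/fl. The difference of -1.25 genes was smaller than the spread between libraries of either genotype. Over all protein-coding genes the share detected was 37.3% ± 8.73 (SD, n = 4) and 33.5% ± 4.36 (SD, n = 4). The number detected went from 17 genes in the libraries with a median of 22 and 24 fragments to 28 genes in the one with 79, and the part of depth in the genotype difference was not tested beyond the settings given next.

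**Figure D2:**
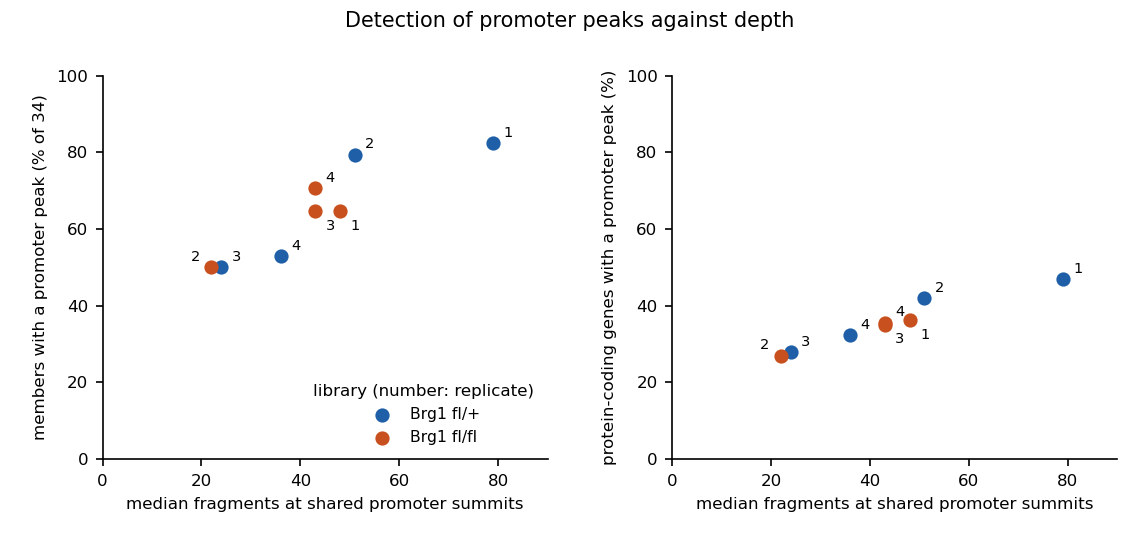
Share of the 34 genes (left) and of all protein-coding genes (right) with a promoter peak, in percent, against the median number of fragments at the summits of promoter regions found in all 8 libraries. Each point is 1 library, numbered by replicate. Detection of the 34 genes runs from 50.0% to 82.4% and is above that of all protein-coding genes in every library.

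Detection was compared between the genotypes for each of the 32 regions. Peaks were present in fewer libraries of Brg1 fl/fl for 10 regions, in more for 3 and in the same number for 19. The 10 are 31.2% of the regions, against 37.4% of all promoter regions, and the 3 are 9.38%, against 11.4% of all promoter regions, so that neither share of the pathway promoters was above the background. No region was complete in Brg1 fl/+ and absent from Brg1 fl/fl. All 32 regions had a peak in Brg1 fl/+ library 1, 3 of them in that library only, and 9 had a peak in Brg1 fl/+ libraries 1 and 2 and in neither 3 nor 4. Without Brg1 fl/+ library 1 the counts, taken as shares of the libraries of a genotype, were 7 fewer and 7 more, and 7 were also more without Brg1 fl/+ library 2 or Brg1 fl/fl library 2. With an equal number of peaks per list, 4 were fewer and 2 more.

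**Figure D3:**
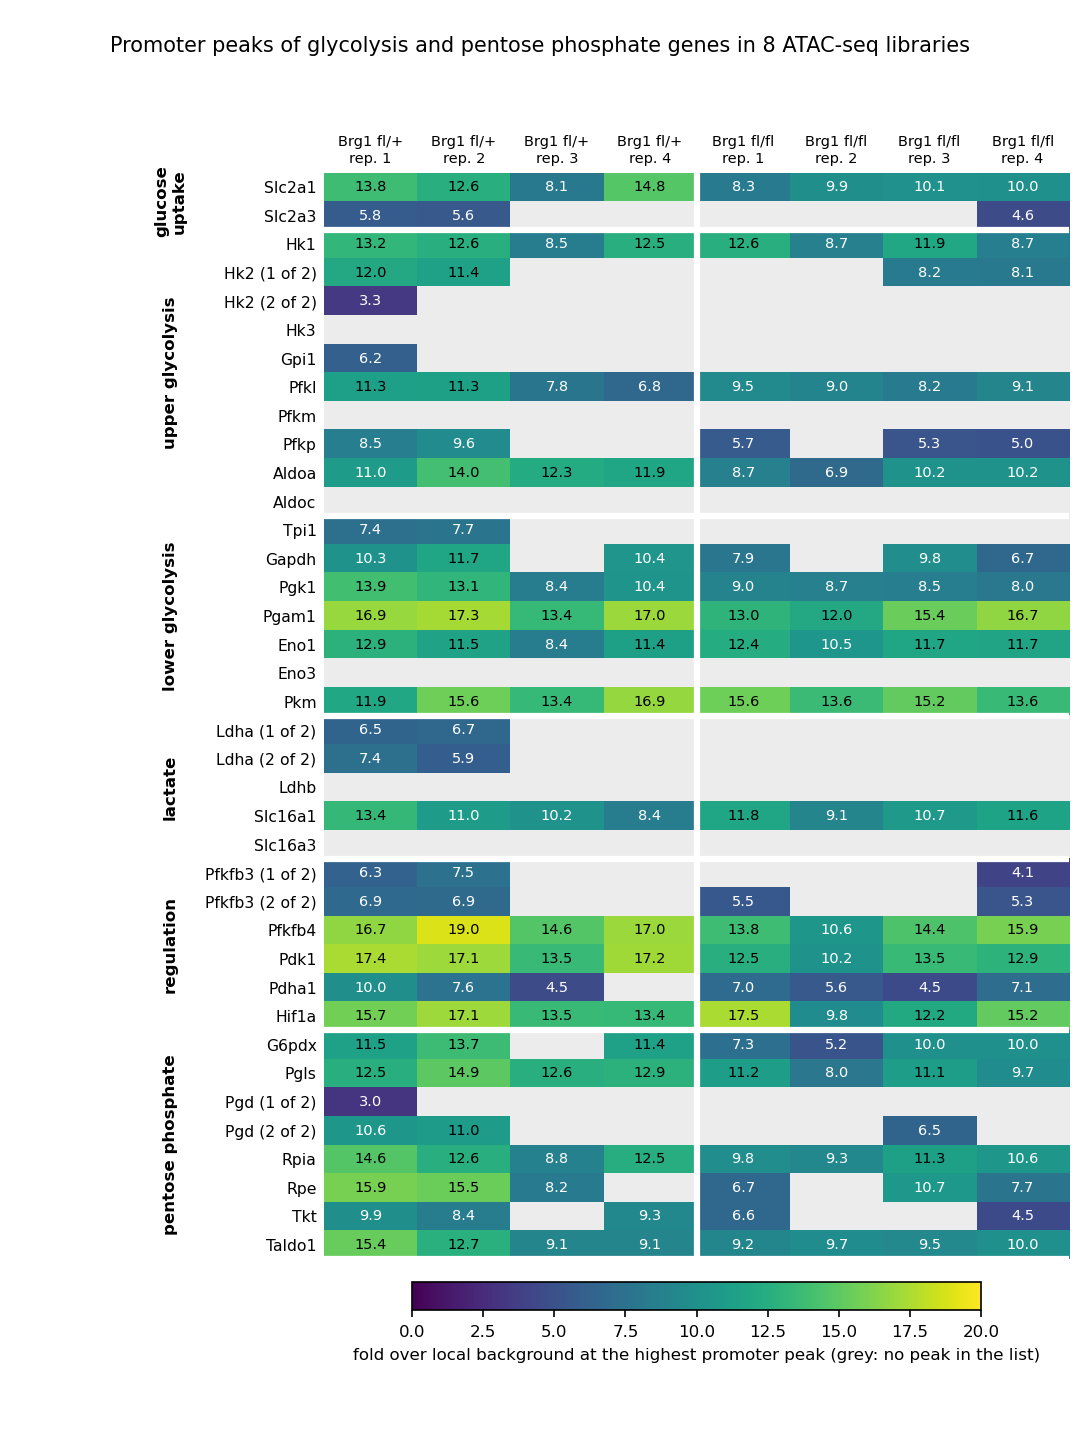
Fold over local background at the highest promoter peak of each region in each library, in color and as a number. Rows are the regions of the 34 genes grouped by role (2 rows for genes with 2 regions, numbered in the direction of transcription), columns are the 8 libraries, and grey marks a list without a peak. Grey cells are frequent in Brg1 fl/+ replicates 3 and 4 and in Brg1 fl/fl replicate 2, and 15 rows are filled in all 8 libraries.

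Folds differed between whole libraries. The median fold of promoter regions found in all 8 libraries was 13.8, 13.4, 10.6 and 12.1 in libraries 1 to 4 of Brg1 fl/+ and 11.3, 9.35, 11.2 and 11.3 in libraries 1 to 4 of Brg1 fl/fl. For the test the log2 fold of a region was therefore set relative to this median of its own library, and a difference is the mean of Brg1 fl/fl minus the mean of Brg1 fl/+ on this centred log2 scale. The difference was fitted with limma over all 4582 regions with a peak in all 8 libraries, with Benjamini-Hochberg adjustment over all of them. Fewer cells with an open promoter and less opening per cell cannot be told apart in such libraries.

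None of the 15 pathway promoters tested was called lower and none was called higher in Brg1 fl/fl (limma, adjusted p under the threshold of 0.05), where 2.18% of all tested regions were called lower and 3.51% were called higher. At an unadjusted p under 0.05 there were 2, Eno1 and Pdk1, or 13.3% of the 15, against 21.9% of all tested promoter regions. The differences ran from -0.26 at Aldoa to 0.29 at Eno1, 8 were below 0 and 7 above, and their median was -0.02, against 0.02 for all tested promoter regions. The 95% intervals of the 15 differences lay within -0.53 and 0.53, and the widest reached 0.31 to either side of its difference. With library 1 joined to 2, and 3 to 4, within a genotype, again none of the 15 was called, the lowest adjusted p was 0.252, and 28 regions were called lower and 40 higher of the 4582. The balance of calls over all regions moved with the scaling, from 100 lower and 161 higher to 160 and 429 with fragments at the summit and to 114 and 104 with quantile normalization, and no pathway promoter was among them.

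**Figure D4:**
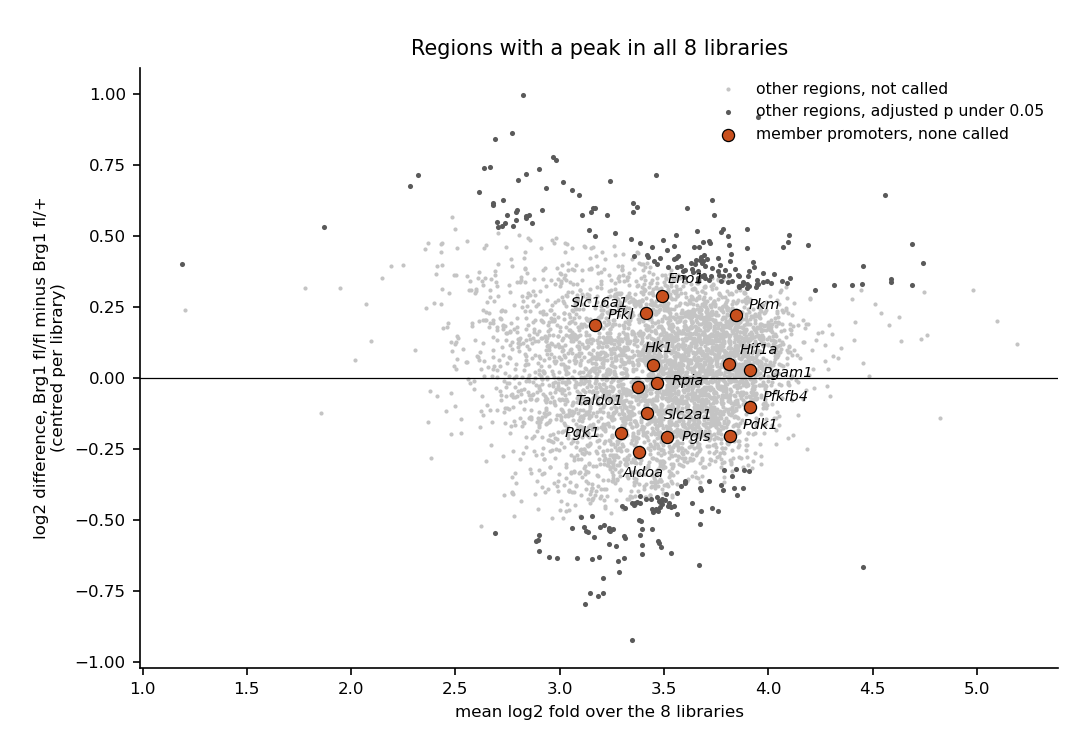
Difference between the genotypes on the centred log2 scale (Brg1 fl/fl minus Brg1 fl/+, vertical axis) against the mean log2 fold over the 8 libraries (horizontal axis) for the 4582 regions with a peak in all 8 libraries. Dark grey points passed an adjusted p of 0.05 in limma, and orange points are the 15 pathway promoters, none of which did. The orange points lie between -0.26 and 0.29.

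Glucose enters the cell through facilitative transporters of the Slc2 family. The promoter of Slc2a1, which encodes the widely expressed transporter GLUT1, had a peak in all 8 libraries (chr4:119108556-119109308), with a fold of 12.3 ± 2.95 (SD, n = 4) for Brg1 fl/+ and 9.59 ± 0.883 (SD, n = 4) for Brg1 fl/fl and a centred difference of -0.12 (SE 0.14, limma adjusted p = 0.630), which ran from -0.22 without Brg1 fl/+ library 3 to -0.0083 without Brg1 fl/+ library 4 and was -0.028 without Brg1 fl/fl library 1. The promoter of Slc2a3, which encodes the high-affinity transporter GLUT3, had low peaks with folds of 5.80 and 5.56 in Brg1 fl/+ libraries 1 and 2 and of 4.62 in Brg1 fl/fl library 4. The Slc2a3 peaks stood on 10 to 16 fragments, near the fewest that gave a peak in any list, which were between 5 and 8.

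From glucose to triose phosphates, 3 of 9 genes had a peak in every library, 3 in some and 3 in none. Hexokinases trap glucose as glucose 6-phosphate. The promoter of Hk1, the broadly expressed hexokinase, had a fold of 11.7 ± 2.16 (SD, n = 4) for Brg1 fl/+ and 10.5 ± 2.09 (SD, n = 4) for Brg1 fl/fl. The promoter of Hk2, the inducible hexokinase, had a region just upstream of its main start site (chr6:82774385-82774758) with folds of 12.0 and 11.4 in Brg1 fl/+ libraries 1 and 2 and of 8.18 and 8.11 in Brg1 fl/fl libraries 3 and 4. It was thus found in 2 libraries of each genotype. A weak region at an internal start site of Hk2 had a fold of 3.28 in Brg1 fl/+ library 1 only.

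Gpi1, the isomerase that turns glucose 6-phosphate into fructose 6-phosphate, had a promoter peak in Brg1 fl/+ library 1 only, with a fold of 6.16 on 40 fragments. Among the phosphofructokinase subunits, which set the committed step, Pfkl of liver type had a peak in all libraries with a fold of 9.29 ± 2.35 (SD, n = 4) for Brg1 fl/+ and 8.96 ± 0.545 (SD, n = 4) for Brg1 fl/fl. Pfkp of platelet type (chr13:6648555-6649140) had folds of 8.52 and 9.61 in Brg1 fl/+ libraries 1 and 2 and of 5.73, 5.26 and 5.04 in Brg1 fl/fl libraries 1, 3 and 4. Pfkp was therefore detected in more Brg1 fl/fl than Brg1 fl/+ libraries, while each Brg1 fl/fl fold was below both Brg1 fl/+ folds, as deposited and after centring. This separation rests on 2 and 3 values, and its share among all partly detected regions was not computed.

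Aldoa, the aldolase that splits fructose 1,6-bisphosphate in most tissues, had the largest negative difference of the 15 promoters (chr7:126798859-126799615). Its folds were 11, 14, 12.3 and 11.9 in libraries 1 to 4 of Brg1 fl/+ and 8.68, 6.91, 10.2 and 10.2 in libraries 1 to 4 of Brg1 fl/fl, with the lowest fold in the shallowest library. On the centred scale the values were -0.33, 0.06, 0.22 and -0.03 in Brg1 fl/+ and -0.38, -0.44, -0.14 and -0.16 in Brg1 fl/fl. The genotypes overlapped on that scale through Brg1 fl/+ library 1, and the difference of -0.26 (SE 0.14) did not pass the test (limma adjusted p = 0.238, and 0.355 with libraries joined). It was -0.16 without Brg1 fl/+ library 3, where Pgk1 at -0.24, Slc2a1 at -0.22 and Pdk1 at -0.20 lay lower, and -0.079 without the shallowest library of each genotype.

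From triose phosphates to pyruvate, 4 of 7 genes had a peak in every library. Tpi1, the triose phosphate isomerase, had folds of 7.35 and 7.66 in Brg1 fl/+ libraries 1 and 2 and no peak in the other 6 lists. Gapdh, the dehydrogenase that makes the NADH of glycolysis, had folds of 10.3, 11.7 and 10.4 in Brg1 fl/+ libraries 1, 2 and 4 and of 7.85, 9.80 and 6.67 in Brg1 fl/fl libraries 1, 3 and 4. Both lists without a Gapdh peak came from the shallowest library of their genotype. Pgk1, the phosphoglycerate kinase that makes ATP, had a fold of 11.5 ± 2.54 (SD, n = 4) for Brg1 fl/+ and 8.54 ± 0.414 (SD, n = 4) for Brg1 fl/fl, with a centred difference of -0.19 (SE 0.14, limma adjusted p = 0.407).

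Pgam1, the phosphoglycerate mutase, was among the 3 highest promoters, with folds of 16.9, 17.3, 13.4 and 17.0 in libraries 1 to 4 of Brg1 fl/+ and of 13, 12.0, 15.4 and 16.7 in libraries 1 to 4 of Brg1 fl/fl. Its centred difference was 0.03 (SE 0.10, limma adjusted p = 0.895), with a 95% interval from -0.17 to 0.23. The folds of the genotypes overlapped at Pgam1.

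Eno1, the ubiquitous enolase, had the largest positive difference (chr4:150236703-150237419). Its folds were 12.9, 11.5, 8.38 and 11.4 in libraries 1 to 4 of Brg1 fl/+ and 12.4, 10.5, 11.7 and 11.7 in libraries 1 to 4 of Brg1 fl/fl, which overlap. After centring, the values were -0.10, -0.22, -0.33 and -0.09 in Brg1 fl/+ and 0.13, 0.17, 0.07 and 0.05 in Brg1 fl/fl. Every Brg1 fl/fl value was then above every Brg1 fl/+ value, which held for 1 of the 15 promoters and for 8.75% of all tested regions. The difference of 0.29 (SE 0.12, 95% interval from 0.05 to 0.53) did not pass the adjustment (limma adjusted p = 0.13, and 0.252 with libraries joined).

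Pkm, the pyruvate kinase that completes glycolysis, was also among the 3 highest promoters, with folds of 11.9, 15.6, 13.4 and 16.9 in libraries 1 to 4 of Brg1 fl/+ and of 15.6, 13.6, 15.2 and 13.6 in libraries 1 to 4 of Brg1 fl/fl. Its centred difference of 0.22 (SE 0.11) was the third largest positive one, did not pass the test (limma adjusted p = 0.234) and was 0.082 without Brg1 fl/+ library 1. On the centred scale the values were -0.21, 0.22, 0.34 and 0.47 in Brg1 fl/+ and 0.46, 0.54, 0.44 and 0.26 in Brg1 fl/fl, which overlap.

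Of the 4 genes of lactate formation and export, Slc16a1 had a peak in every library and Ldha in 2. Ldha, which encodes the lactate dehydrogenase A subunit, had 2 regions. The upstream region (chr7:46845673-46845929), whose sequence holds the E-box and hypoxia core matches shown above, had folds of 6.48 and 6.67 in Brg1 fl/+ libraries 1 and 2, and the downstream region (chr7:46846793-46847164) had folds of 7.39 and 5.95 in the same libraries. Neither region had a peak in the other 6 lists, on 16 to 28 fragments where it did. In Brg1 fl/+ library 1 they ranked at 62.4% and 56.4% of the list from the best peak, and libraries 1 and 2 were the deepest of the 8.

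Slc16a1, which encodes the proton-coupled lactate transporter MCT1 (chr3:104638283-104639000), had folds of 13.4, 11, 10.2 and 8.38 in libraries 1 to 4 of Brg1 fl/+ and of 11.8, 9.09, 10.7 and 11.6 in libraries 1 to 4 of Brg1 fl/fl. On the centred scale they were -0.04, -0.29, -0.05 and -0.54 in Brg1 fl/+ and 0.06, -0.04, -0.06 and 0.03 in Brg1 fl/fl. The groups overlapped, and the difference of 0.23 (SE 0.13) did not pass the test (limma adjusted p = 0.287). It was 0.13 without Brg1 fl/+ library 4 and 0.49 by fragments at the summit (limma adjusted p = 0.0552).

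Of the 5 regulators, 3 had a peak in every library. Pfkfb enzymes set the level of fructose 2,6-bisphosphate, the activator of phosphofructokinase. Pfkfb4 had the highest mean fold of all 32 regions (chr9:108991489-108991991), with 16.7, 19, 14.6 and 17.0 in libraries 1 to 4 of Brg1 fl/+ and 13.8, 10.6, 14.4 and 15.9 in libraries 1 to 4 of Brg1 fl/fl. The centred difference at Pfkfb4 was -0.10 (SE 0.10, limma adjusted p = 0.562). Pfkfb3, the form that responds to mitogens and hypoxia, had 2 weak regions. The downstream one (chr2:11501373-11502390) had folds of 6.87 and 6.88 in Brg1 fl/+ libraries 1 and 2 and of 5.48 and 5.26 in Brg1 fl/fl libraries 1 and 4, and the upstream one (chr2:11553451-11554145) had 6.26 and 7.54 in Brg1 fl/+ libraries 1 and 2 and 4.08 in Brg1 fl/fl library 4. Pfkfb3 was thus detected in 2 libraries of each genotype.

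Pdk1, the kinase that inactivates pyruvate dehydrogenase and so diverts pyruvate from mitochondria, had folds of 17.4, 17.1, 13.5 and 17.2 in libraries 1 to 4 of Brg1 fl/+ and of 12.5, 10.2, 13.5 and 12.9 in libraries 1 to 4 of Brg1 fl/fl (chr2:71872930-71873597). The centred values were 0.34, 0.35, 0.36 and 0.50 in Brg1 fl/+ and 0.14, 0.13, 0.27 and 0.19 in Brg1 fl/fl. All 4 Brg1 fl/fl values were below all Brg1 fl/+ values, which held for 1 of the 15 promoters and for 4.56% of all tested regions. The difference of -0.20 (SE 0.10, 95% interval from -0.40 to -0.01) did not pass the adjustment (limma adjusted p = 0.199, and 0.344 with libraries joined), and it was -0.13 by fragments at the summit.

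Pdha1, the pyruvate dehydrogenase subunit that Pdk1 phosphorylates, had folds of 9.99, 7.6 and 4.54 in Brg1 fl/+ libraries 1 to 3 and of 6.95, 5.61, 4.47 and 7.14 in Brg1 fl/fl libraries 1 to 4. It was 1 of the 3 regions detected in more Brg1 fl/fl libraries, with 4 against 3. Hif1a, the oxygen-regulated subunit of HIF-1 and an activator of many of these genes, had a peak in every library with a fold of 14.9 ± 1.79 (SD, n = 4) for Brg1 fl/+ and 13.6 ± 3.38 (SD, n = 4) for Brg1 fl/fl and a centred difference of 0.05 (SE 0.11, limma adjusted p = 0.826).

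All 7 pentose phosphate genes had a promoter peak, 3 of them in every library. G6pdx, the dehydrogenase that commits glucose 6-phosphate to the pathway, had folds of 11.5, 13.7 and 11.4 in Brg1 fl/+ libraries 1, 2 and 4 and of 7.28, 5.17, 10.0 and 10.0 in Brg1 fl/fl libraries 1 to 4. It was detected in 4 Brg1 fl/fl and 3 Brg1 fl/+ libraries, with every Brg1 fl/fl fold below every Brg1 fl/+ fold as deposited. After centring, the G6pdx values were -0.27, 0.03 and -0.09 in Brg1 fl/+ and -0.64, -0.85, -0.16 and -0.17 in Brg1 fl/fl, so that the genotypes overlapped through Brg1 fl/+ library 1. Pgls, the lactonase of the next step (chr8:71591885-71592550), had folds of 12.5, 14.9, 12.6 and 12.9 in libraries 1 to 4 of Brg1 fl/+ and of 11.2, 7.96, 11.1 and 9.70 in libraries 1 to 4 of Brg1 fl/fl. After centring the Pgls values were -0.13, 0.16, 0.26 and 0.08 in Brg1 fl/+ and -0.01, -0.23, -0.01 and -0.22 in Brg1 fl/fl, which overlap through Brg1 fl/+ library 1. The difference of -0.21 (SE 0.12) did not pass the test (limma adjusted p = 0.288), and it was -0.14 without Brg1 fl/+ library 3 and -0.068 without the shallowest library of each genotype.

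Pgd, the 6-phosphogluconate dehydrogenase that makes the second NADPH, had a region at its start site (chr4:149166472-149166860) with folds of 10.6 and 11 in Brg1 fl/+ libraries 1 and 2 and of 6.47 in Brg1 fl/fl library 3. Its weak upstream region had a fold of 2.98 in Brg1 fl/+ library 1 only, at the very end of that list. In the non-oxidative branch, which interconverts sugar phosphates, Rpia and Taldo1 had a peak in every library with centred differences of -0.02 (SE 0.12) and -0.03 (SE 0.14). Rpe, the epimerase of ribulose 5-phosphate, had folds of 15.9, 15.5 and 8.16 in Brg1 fl/+ libraries 1 to 3 and of 6.73, 10.7 and 7.69 in Brg1 fl/fl libraries 1, 3 and 4. Tkt, the transketolase, had folds of 9.93, 8.45 and 9.31 in Brg1 fl/+ libraries 1, 2 and 4 and of 6.64 and 4.47 in Brg1 fl/fl libraries 1 and 4. At Tkt every Brg1 fl/+ fold was above both Brg1 fl/fl folds, as deposited and after centring, and at Rpe the groups overlapped through Brg1 fl/+ library 3. The Tkt separation rests on 3 and 2 values. After centring, the genotypes were also separated at Slc2a3, both Pfkfb3 regions and the main regions of Hk2 and Pgd, and overlapped at Gapdh, G6pdx and Pdha1. At Slc2a3, the upstream Pfkfb3 region and Pgd the separation rests on only 2 Brg1 fl/+ values and 1 Brg1 fl/fl value. At Slc2a3 these were -1.25 and -1.27 against -1.29. At the downstream Pfkfb3 region and Hk2 it rests on 2 values of each genotype. Separation of so few values says little. The share separated among all partly detected regions was not computed.

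**Figure D5:**
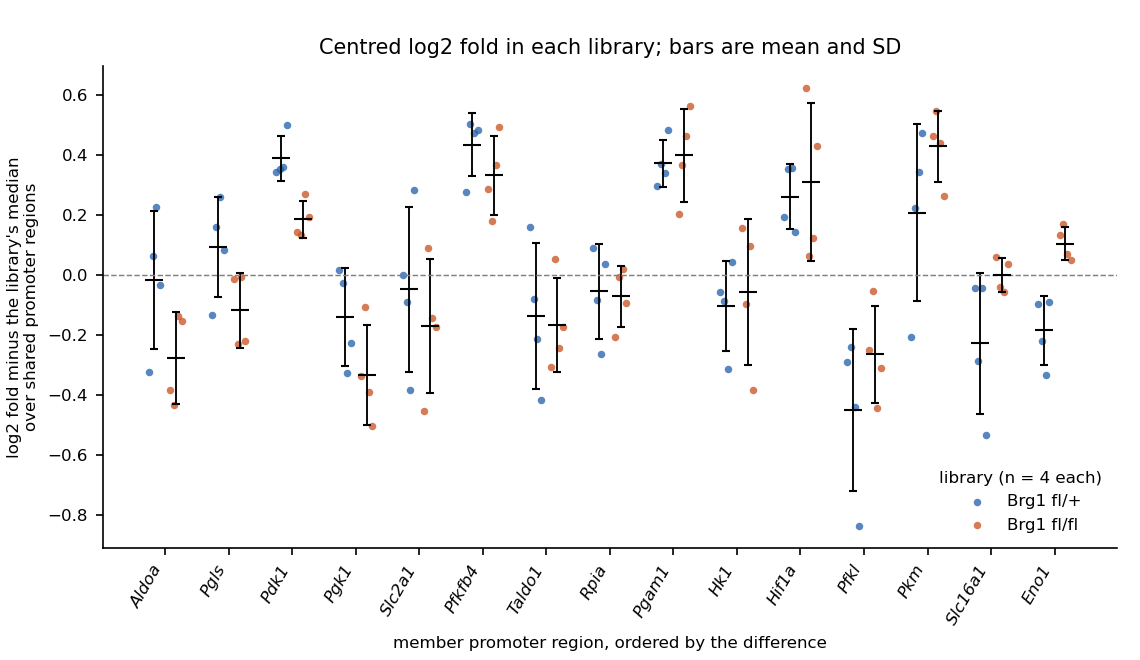
Log2 fold relative to the median of the same library's shared promoter regions (vertical axis) for the 15 promoters with a peak in all 8 libraries, ordered by the difference between genotypes (horizontal axis). Points are libraries, 4 for each genotype, and bars are the mean and SD. The genotypes are separated at Pdk1 and at Eno1 and overlap at the other 13.

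When regions with a peak in at least 2 libraries of each genotype were tested and missing values left missing, 23 of the 32 regions entered the fit, none was called, and the background was 4.97% called lower and 2.9% called higher of 7942 regions. The median of the 23 differences was -0.10, against -0.05 for all promoter regions so tested, and 16 of the 23 were below 0 (69.6%), against 58.0% of promoter regions. At an unadjusted p under 0.05 there were 5 lower, Pfkp, Pdk1, G6pdx, Rpe and Tkt, and 1 higher, Eno1. Together they are 26.1% of the 23, near the 23.7% of all 7048 promoter regions so tested, of which 1123 were lower and 544 higher. The lowest adjusted p was 0.084 (limma), for Rpe (centred difference -0.48, SE 0.18). All 6 pentose phosphate promoters that entered this fit, those of G6pdx, Pgls, Rpia, Rpe, Tkt and Taldo1, were below 0, from -0.55 at Tkt to -0.02 at Rpia, and none was called, while by fragments at the summit over regions found in all 8 libraries Rpia and Taldo1 lay above 0 (0.015 and 0.10). A fold enters this fit only where a peak was called, so that the libraries without a peak at G6pdx, Rpe or Tkt do not count in their means.

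Detection followed the standing of a region in the deepest list. In Brg1 fl/+ library 1, the 15 regions found in all libraries ranked at a median of 14.4% of the list by q, from 3.85% to 29.0%, and stood on 58 to 123 fragments. The 17 regions missing from at least 1 list ranked at a median of 52.6%, from 17.6% at Rpe to the very end of the list at the upstream Pgd region, and stood on 10 to 68 fragments. All promoter regions showed medians of 16.2% and 54.5% for the same classes.

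Of 58 other genes of these pathways and of their regulation, 57 were in the annotation, 40 had a promoter peak, 15 had one in all 8 libraries and 17 had none. By detection, 15 of the 40 genes had a peak in fewer Brg1 fl/fl libraries (37.5%, against 32.2% of all protein-coding genes with a promoter peak) and 4 in more (10.0%, against 11.3%). The 4 were Mpc1 of the mitochondrial pyruvate carrier, H6pd of the endoplasmic reticulum, the hypoxia-inducible subunit gene Epas1 and Vhl, whose product marks HIF for degradation. Of the 15, Slc2a8 and Egln1 had a peak in 3 Brg1 fl/+ and no Brg1 fl/fl libraries, with folds from 4.54 to 7.82 at Slc2a8, a glucose transporter gene, and from 6.73 to 10.4 at Egln1, which encodes an oxygen-sensing prolyl hydroxylase. Galk1, the galactokinase gene, had folds of 12.0 and 13.5 in 2 Brg1 fl/+ libraries and no peak elsewhere. These 3 genes were named after their values were seen. Eno2 and Prps2 also had a peak in 2 Brg1 fl/+ and no Brg1 fl/fl libraries. The share of all protein-coding genes with these detection patterns was not computed. Of the 15 genes tested, 1 was called lower (6.67%, against 2.18% of all tested regions) and none was called higher (against 3.51%). This was Arnt, which encodes the constitutive HIF-1 partner and was named after its value was seen (chr3:95434130-95434682). Its folds were 14.8, 17.1, 12.3 and 12.7 in libraries 1 to 4 of Brg1 fl/+ and 8.51, 9.20, 9.93 and 9.20 in libraries 1 to 4 of Brg1 fl/fl. All Brg1 fl/fl folds were below all Brg1 fl/+ folds, also after centring, where this held for 4.56% of all tested regions. The centred difference was -0.41 (SE 0.12, 95% interval from -0.65 to -0.16, limma adjusted p = 0.0389). The adjusted p missed the threshold with libraries joined (0.102, limma, at the same difference) and in 7 of the 8 fits that left out 1 library. In those 8 fits the adjusted p (limma) went up to 0.153 without Brg1 fl/+ library 2, while the difference stayed between -0.46 and -0.35. By rank within the list the adjusted p was 0.266 (limma), but that fit called 0 of all 4582 regions and so could not call Arnt. Over the 19 alternatives the lowest adjusted p at Arnt was 0.0182 (limma), and the difference changed sign in 0 of them.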

How the data were processed

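ATAC-seq peak lists of 8 libraries were analysed, and the 8 RNA-seq samples of the series were not analysed here. The authors used Bowtie2 to map the read pairs (mm10) and ran MACS2 separately on every library. Tool versions are not given in the sources used here. Each deposited peak carries a fold ratio, the height of its summit relative to that library's expected background, and a −log10 p-value and q-value, and the libraries were not scaled to each other. The authors compared coverage with DESeq2, which cannot be repeated on such lists.

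Peaks of chromosomes 1 to 19, X and Y that overlapped or touched were joined, and a library detected a region when a peak overlapped it by at least 1 bp. Start sites came from GENCODE M21 (GRCm38). Fragments at a summit were solved from the fold and −log10 p-value (tolerance 0.002) and were whole for 99.7% to 99.8% of peaks. The log2 fold was centred per library and fitted by genotype in limma 3.58.1 (R 4.3.3), moderated with trend and two-sided, with Benjamini-Hochberg adjustment at 0.05. In simulated data with 200 planted log2 differences of 1 among 4582 regions, all were recovered with 10 wrong calls. The planted size was larger than any difference of the 15 promoters (-0.26 to 0.29), and every region was given the same spread. Recovery of differences of the size seen at the 15 promoters was not simulated. Depth, not given as read totals, limits detection, and intervals cover the spread between libraries.

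Groups came from the sample labels. The genes and lists were chosen with earlier results of these data known. Values are given in every library for the 3 largest differences in each direction, the 3 highest mean folds and all regions not detected everywhere. Alternatives changed the peak height measure, scaling, window, peak threshold, overlap, replicate block and libraries used. Sequence was read with pysam 0.24.0.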

Additional observations from a re-analysis of the deposited data

Results flagged for a closer look

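Of 32 groups of 4 libraries examined, 2 held a library far from the others of its genotype, where chance gives about 5% of groups. At the Pfkfb4 promoter, Brg1 fl/+ library 1 had a centred log2 fold of 0.28, while the other 3 Brg1 fl/+ libraries lay between 0.47 and 0.50. At the Pdk1 promoter, Brg1 fl/+ library 4 had a centred log2 fold of 0.50, while the other 3 lay between 0.34 and 0.36.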

How the results depend on the processing

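No pathway promoter was called in either direction under any of the 19 alternatives run, and the lowest adjusted p of a single promoter was 0.0552 (limma, Slc16a1 by fragments). One of them, rank within the list, called 0 of all 4582 regions and so says nothing about stability. Over all regions, leaving out 1 library gave 30 to 128 calls lower and 51 to 286 higher. The replicate block left the calls at 0. In this balanced design a block cannot change a difference, so the unchanged median of -0.02 was fixed in advance. Deviations of same-numbered libraries had r from -0.09 to 0.01, and those of differently numbered ones from -0.11 to 0.10. No strong shared effect of the number was seen, but whether the numbers pair the libraries cannot be told from this. The median difference moved to -0.10 with at least 2 libraries of each genotype, and ran from -0.06 to 0.03 when 1 library was left out. The difference in genes detected ran from -3.08 to 0.583 when 1 library was left out. Regions detected in fewer Brg1 fl/fl libraries numbered 4 when every list was shortened to equal length and 7 to 14 with 1 library left out. Those detected in more numbered 0 at a −log10 q of at least 5, 10 when peaks had to cover 50% of a region, and 3 to 7 with 1 library left out. Without the shallowest library of each genotype, chosen after seeing the data, the counts were 10 and 3. The cause of these shifts was not tested. Of 285 single values over 15 promoters, 20 changed sign, in 6 promoters. By fragments, Hk1 was -0.061, Hif1a -0.14, Rpia 0.015 and Taldo1 0.10. By rank, Hk1 was -2.89, Hif1a -7.12, Pgam1 -1.63 and Taldo1 0.737 percentage points. Under quantile normalization Pgam1 was -0.022. With 1 library or the shallowest pair left out, the values ran from -0.025 to 0.16 for Hk1, from -0.057 to 0.21 for Hif1a, from -0.027 to 0.092 for Pgam1, from -0.072 to 0.032 for Rpia, from -0.12 to 0.069 for Taldo1 and from -0.16 to 0.0089 for Pfkfb4.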
